A study of Mus musculus with 4 samples.

Results

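The Ifitm genes encode interferon-induced transmembrane proteins, and 4 of them, Ifitm1, Ifitm2, Ifitm3 and Ifitm6, were followed across mouse bone marrow cell types and 4 libraries. The members were taken as the rows of the count matrix that carry these 4 symbols, out of 32285 gene features. All 4 symbols matched 1 row each. A further 3 features have symbols that start with Ifitm (Ifitm5, Ifitm7 and Ifitm10) and were not members.

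IFITM proteins are small membrane proteins of the cell surface and of endosomes. They hinder the fusion of enveloped viruses with the cell, and IFITM3 acts mainly in late endosomes and IFITM1 mainly at the plasma membrane. Many are induced by interferon through response elements in their promoters, and stem and progenitor cells carry high levels of some of them without added interferon. Ifitm6 is known as a transcript of mouse myeloid cells.

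The series profiled Kit+ CD45.2+ mouse bone marrow by CITE-seq, which counts transcripts and antibody-bound barcodes in the same single cells. Kit (CD117) is the receptor for stem cell factor on blood stem and progenitor cells, and CD45.2 marks the cells of 1 side of a transplantation. Mll3 and Mll4, encoded by Kmt2c and Kmt2d, are related histone methyltransferases of enhancers. Of the 4 groups, each collected 10 weeks after transplantation, 1 was a control and the others were labelled deleted for Mll3, for Mll4, or for both (Mll3/4), with 1 library each. What all groups share is the transplantation and the Kit+ CD45.2+ selection. The driver of the deletion, the recipients, the number and age of the mice, and what the 2 hashtag antibodies mark are not given in the sources used here.

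The kept cells numbered 7146 in the control, 5860 in the library labelled Mll3 deleted, 5350 in that labelled Mll4 deleted and 6917 in that labelled Mll3/4 deleted. These cells held 153615605, 135986150, 32777830 and 77657652 UMIs (unique transcript counts) in the same order, so the Mll4-labelled library is the shallowest, with a median of 5142 UMIs per cell against 15754 in the control. Kmt2c had 47.9 CPM (counts scaled to a total of 1000000 UMIs) in the control, 27.2 in the Mll3-labelled, 59.2 in the Mll4-labelled and 34.8 in the Mll3/4-labelled library, and Kmt2d had 25.8, 21.6, 25.0 and 24.8. Kmt2d was thus not lower where Mll4 is labelled deleted, but 3′ tags may lie outside the deleted part and then check nothing, so the libraries are named by their labels throughout. The Mll4-labelled library also stood apart by Xist, at 0.519 CPM against 955 to 1839 in the other 3. A cluster of 1977 cells, 1914 of them from that library, had the Y-linked gene Eif2s3y among its leading genes. A difference in sex was not tested and cannot be told apart from the Mll4 label. Of 6917 kept cells in the Mll3/4-labelled library 98.7% were B-cell progenitor-like, against 6.55% in the control, and between 3 and 15 kept cell barcodes were shared by any pair of libraries. With 1 library per group no difference between groups was tested. Every interval printed is an exact 95% interval (Poisson for counts, Clopper-Pearson for shares) that covers counting error only. The comparisons with the control all use the same control library.

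The 4 members lie within 63.1 kb of chromosome 7 in the GRCm38 build, by the GENCODE M21 annotation. In chromosome order these are Ifitm2 (ENSMUSG00000060591, chr7:140954837-140955987, minus strand), Ifitm1 (ENSMUSG00000025491, chr7:140967221-140969825, plus strand), Ifitm3 (ENSMUSG00000025492, chr7:141009586-141010770, minus strand) and Ifitm6 (ENSMUSG00000059108, chr7:141015699-141017924, minus strand). Reads of 1 member can also match another gene. For Ifitm2, 214 of 566 windows of 90 bases along its transcript (37.8%) occurred also in Gm11951, Gm45717 or Gm8865, so its level is uncertain where the counting could split such reads. No window of Ifitm1, Ifitm3 or Ifitm6 was shared.

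The promoters of the 4 members are shown because neighbouring genes of 1 family, counted in the same cells, differed in level below. The sequences are RefSeq's on GRCm38.p6, each of 300 bases from 250 before to 50 after the transcription start, written 5′ to 3′ on the gene's strand. They lie at chr7:140967826-140968125 for Ifitm1 (plus strand), chr7:140955912-140956211 for Ifitm2, chr7:141010695-141010994 for Ifitm3 and chr7:141016843-141017142 for Ifitm6 (minus strand for these 3). Capitals mark matches to GAAA, any 2 bases and GAAA, the core of the interferon-stimulated response element (ISRE), searched on both strands.
Ifitm1: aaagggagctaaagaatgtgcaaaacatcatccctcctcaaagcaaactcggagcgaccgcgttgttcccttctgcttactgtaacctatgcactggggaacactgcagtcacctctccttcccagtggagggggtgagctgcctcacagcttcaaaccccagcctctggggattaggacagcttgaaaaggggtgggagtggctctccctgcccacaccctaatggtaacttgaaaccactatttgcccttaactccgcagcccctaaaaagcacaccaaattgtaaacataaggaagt
Ifitm2: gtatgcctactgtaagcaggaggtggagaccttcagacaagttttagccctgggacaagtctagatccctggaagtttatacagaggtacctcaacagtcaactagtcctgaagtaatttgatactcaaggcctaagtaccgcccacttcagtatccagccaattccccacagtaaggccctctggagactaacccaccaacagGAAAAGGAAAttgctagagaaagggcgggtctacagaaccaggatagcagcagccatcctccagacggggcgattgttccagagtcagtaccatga
Ifitm3: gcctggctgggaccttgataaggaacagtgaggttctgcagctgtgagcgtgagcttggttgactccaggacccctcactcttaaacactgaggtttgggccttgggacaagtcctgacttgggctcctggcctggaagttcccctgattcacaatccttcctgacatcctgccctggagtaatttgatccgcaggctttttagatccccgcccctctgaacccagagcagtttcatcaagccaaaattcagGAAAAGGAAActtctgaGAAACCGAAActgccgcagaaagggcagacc
Ifitm6: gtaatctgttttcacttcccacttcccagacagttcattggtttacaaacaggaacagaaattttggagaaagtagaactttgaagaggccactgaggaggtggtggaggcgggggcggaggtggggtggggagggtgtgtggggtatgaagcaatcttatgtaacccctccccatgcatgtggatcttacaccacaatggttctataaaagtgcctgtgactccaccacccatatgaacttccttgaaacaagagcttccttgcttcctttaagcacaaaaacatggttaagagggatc

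Among these windows Ifitm3 held 2 matches to the ISRE core, GAAAAGGAAA at bases 2 to 11 and GAAACCGAAA at bases 19 to 28 after the start, with the first transcribed base counted as 0. Ifitm2 held 1, GAAAAGGAAA, from 46 to 37 bases before the start. The Ifitm1 and Ifitm6 windows held none. Ifitm1 and Ifitm6 each have 3 annotated transcripts, and starts other than the 1 in the RefSeq table were not searched. The gamma-activated site pattern TTCNNNGAA matched once in Ifitm3 (TTCTGAGAA, overlapping its second ISRE match) and once in Ifitm6 (TTCCTTGAA). For comparison, 1131 of 32851 promoter windows of this length in the RefSeq table (3.44%) held the ISRE core and 2726 (8.30%) the gamma-activated site pattern. A match is a string of letters, not a measured binding site.

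In the control library each member had its own distribution over cell types. Cells were clustered without any Ifitm gene, and a cluster was named "like" a cell type from marker genes. Ifitm1 was highest in basophil/mast-like cells, at 1092 CPM, and next in HSC/MPP-like cells (stem cells and multipotent progenitors), at 544 CPM (interval 534 to 555). These were 2.0-fold apart, beyond counting error. Megakaryocyte-like cells followed at 145 CPM, monocyte/macrophage progenitor-like cells at 104, erythroid progenitor-like cells at 70.3, B-cell progenitor-like cells at 53.9 and granulocyte progenitor-like cells at 25.1. At the low end T/NK/innate lymphoid-like cells, at 9.98 CPM from 50 cells, and neutrophil-like cells, at 5.51 CPM, did not differ beyond counting error, nor did granulocyte progenitor-like from T/NK/innate lymphoid-like cells. Ifitm1 was thus a transcript of the earliest progenitors and of the basophil/mast branch in the control, with neutrophil-like cells 198-fold below the highest class. In 2 of 9 settings the highest class was HSC/MPP-like instead.

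Ifitm2 was spread most evenly over the classes. It ranged in the control from 809.7 CPM in basophil/mast-like cells, through 748 in megakaryocyte-like and 717 in HSC/MPP-like cells, to 305 in B-cell progenitor-like and 76.5 in T/NK/innate lymphoid-like cells. All neighbours in this order differed beyond counting error, although the first 4 classes lie within 1.2-fold of each other. Only B-cell progenitor-like and T/NK/innate lymphoid-like cells, 2 of 9 classes, were at least 2-fold below the highest.

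Ifitm3 had 2 separate high compartments in the control. Megakaryocyte-like cells had 577 CPM, HSC/MPP-like cells 556 CPM and neutrophil-like cells 553 CPM. The last pair did not differ beyond counting error. Monocyte/macrophage progenitor-like cells had 388 CPM. Basophil/mast-like cells at 168, erythroid progenitor-like cells at 159, granulocyte progenitor-like cells at 155 and B-cell progenitor-like cells at 142 formed a lower set in which no neighbour differed from the next beyond counting error. Granulocyte progenitor-like cells, between HSC/MPP-like and neutrophil-like cells in the textbook order of maturation, thus had a lower level of Ifitm3 than either.

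Ifitm6 was a neutrophil-like transcript. Neutrophil-like cells had 1181 CPM in the control, and the next class, monocyte/macrophage progenitor-like, had 17.9 CPM, a level 66.1-fold below. The other classes had 2.45 to 10.9 CPM. S100a8 and S100a9, abundant neutrophil transcripts that mark free RNA in other droplets, were counted beside it. In the control Ifitm6 had 4.75 counts per 1000 counts of S100a8 and S100a9 in neutrophil-like cells, 5.67 in HSC/MPP-like cells, 5.30 in erythroid progenitor-like cells and 4.57 in megakaryocyte-like cells. Granulocyte progenitor-like cells had 1.06 and basophil/mast-like cells 8.90, the latter from 13 Ifitm6 counts. The part of free RNA in these low Ifitm6 levels was not tested. Monocyte/macrophage progenitor-like cells stood apart, with 26.0 Ifitm6 counts per 1000 in the control and 15.6 in the Mll3-labelled library against 3.59 in the Mll4-labelled library.

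**Figure D1:**
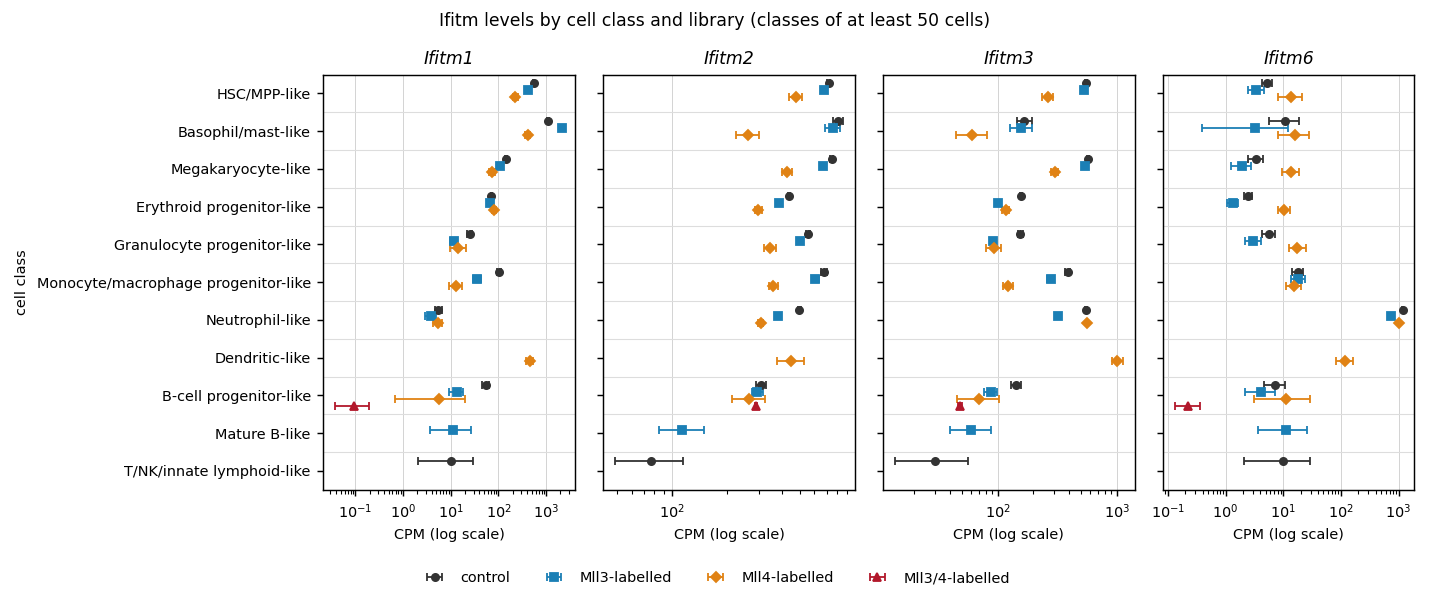
Level of each member (CPM, log axis) in each cell class with at least 50 cells, by library, with exact 95% Poisson intervals for counting error only. Ifitm6 stands at 1181 CPM in control neutrophil-like cells and at 17.9 CPM or below in every other control class, and Ifitm1 of the Mll3/4-labelled B-cell progenitor-like cells lies at 0.0922 CPM.

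Within 1 class, the level of a member could also differ between clusters, as shown for Ifitm1 and Ifitm6. The order of maturation of these clusters was not measured. In erythroid progenitor-like cells, Ifitm1 in the control was 373 CPM in the cluster led by Apoe and Gm15915, 56.9 CPM in that led by Car1 and Gm15915, and 3.45 CPM in that led by Mt2 and Rhd. With the Mll3 label the same clusters had 384, 96.9 and 2.86 CPM, and with the Mll4 label 402, 62.6 and 1.85 CPM. In all 3 libraries Ifitm1 thus fell steeply from the first to the last of these clusters, by far more than the libraries differed within a cluster. In neutrophil-like cells of the control, Ifitm6 rose over 3 clusters, named here by their leading genes. It was 791 CPM in the Fcnb cluster, 1338 CPM in the Inhba and Cd177 cluster, and 2198 CPM in the Retnlg and Mmp8 cluster. In the Mll3-labelled library the same clusters had 525, 1037 and 1224 CPM. The Mll4-labelled neutrophil-like cells lay mostly in a cluster of 1977 cells of which 1914 came from that library, which may reflect the library and not a cell state. Ifitm6 had 809.9 CPM there and 1882 CPM in the Retnlg and Mmp8 cluster.

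**Figure D2:**
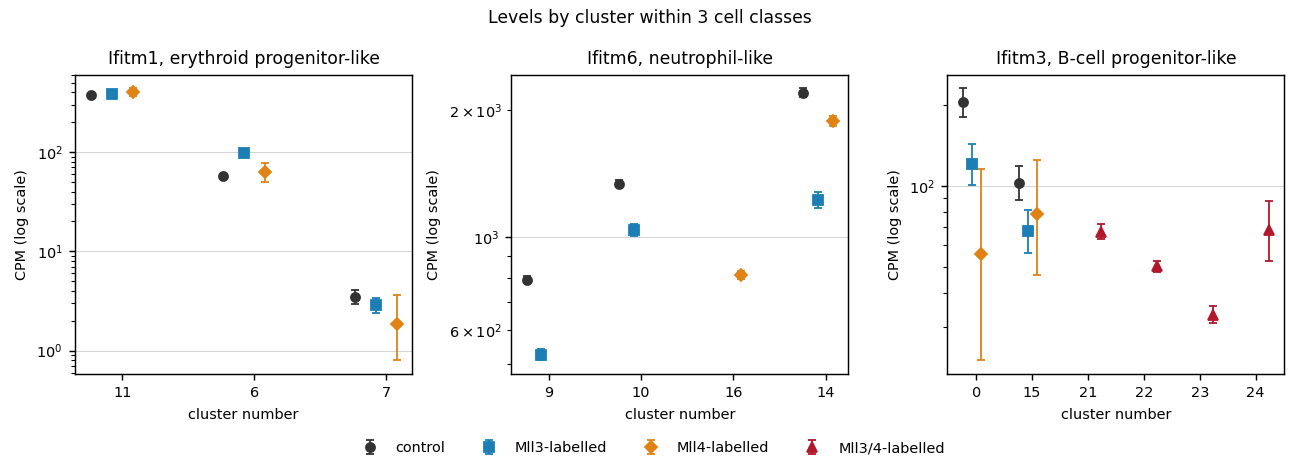
Levels (CPM, log axis) of Ifitm1 in erythroid progenitor-like clusters, Ifitm6 in neutrophil-like clusters and Ifitm3 in B-cell progenitor-like clusters with at least 50 cells, by library, with exact 95% Poisson intervals. Ifitm1 falls from 373 to 3.45 CPM across the control erythroid clusters while control Ifitm6 rises from 791 to 2198 CPM across the neutrophil clusters.

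Surface antibodies gave a view of the same pattern that does not use the clusters. Among cells above the CD117 threshold, those also positive for Sca1, an antigen of stem cells and multipotent progenitors, had 555 CPM of Ifitm1 in the control against 115 CPM in the Sca1-negative cells, a log2 difference of 2.27. The same difference was 2.28 in the Mll3-labelled, 1.22 in the Mll4-labelled and 1.47 in the Mll3/4-labelled library, where the levels were only 9.23 and 3.34 CPM. For Ifitm3 it was 1.46 in the control (650.5 against 237 CPM), 1.73 and 1.14 in the Mll3- and Mll4-labelled libraries and 0.33 in the Mll3/4-labelled library. For Ifitm2 it was 0.30, 0.34, 0.27 and −0.03. Ifitm6 was at 25.8 CPM in the Sca1-positive and 11.4 CPM in the Sca1-negative cells of the control. It was at 6.46 and 5.87 CPM in the Mll3-labelled and at 139 and 115 CPM in the Mll4-labelled library. HSC/MPP-like cells had 5.29 CPM in the control and 13.6 CPM in the Mll4-labelled library. The part of neutrophil-like cells or free RNA in the gates was not tested. At least a 2-fold Sca1-positive excess was thus shown by Ifitm1, Ifitm3 and Ifitm6 in the control, and by Ifitm1 and Ifitm3 in the Mll3- and Mll4-labelled libraries. In the Mll3/4-labelled library it was shown by Ifitm1 and Ifitm6, the latter at 2.36 and 0.842 CPM. Of that library's counts, 528 of 535 for Ifitm1 and 853 of 870 for Ifitm6 lay in 87 cells outside the B-cell progenitor-like class. Its gate differences may thus rest on a few cells. The number of members with a 2-fold excess fell from 2 to 1 in the Mll4-labelled library with no doublet removal, with thinning and with halved thresholds. It fell from 2 to 1 in the Mll3/4-labelled library with thinning and with doubled or halved thresholds.

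Within the CD117-high Sca1-positive cells, CD150 and CD48 separate a stem cell gate (CD150 positive, CD48 negative) from multipotent progenitor gates. All antibody thresholds were set in control cells and used for every library. In the stem cell gate Ifitm1 was 781 CPM in the control, 516 in the Mll3-labelled, 141 in the Mll4-labelled and 31.4 in the Mll3/4-labelled library, from 240, 297, 77 and 200 cells. In the CD150-negative CD48-negative gate it was 990.0, 534, 91.2 and 3.77 CPM, from 95, 167, 71 and 1940 cells. In the control the CD48-negative gates had the higher Ifitm1, since the CD48-positive gates had 308 CPM (CD150 positive) and 435 CPM (CD150 negative). Ifitm3 in the stem cell gate was 882, 760.0, 468 and 79.7 CPM. Both genes took the same order over the libraries in that gate: control, Mll3-labelled, Mll4-labelled, Mll3/4-labelled. Since 98.7% of the Mll3/4-labelled cells were B-cell progenitor-like by transcriptome, these gates need not hold the same kinds of cells in that library. Nor need they in the Mll4-labelled library, whose CD117-high Sca1-positive cells had 139 CPM of Ifitm6 against 25.8 CPM in the control. The kinds of cells in the gates were not compared.

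**Figure D3:**
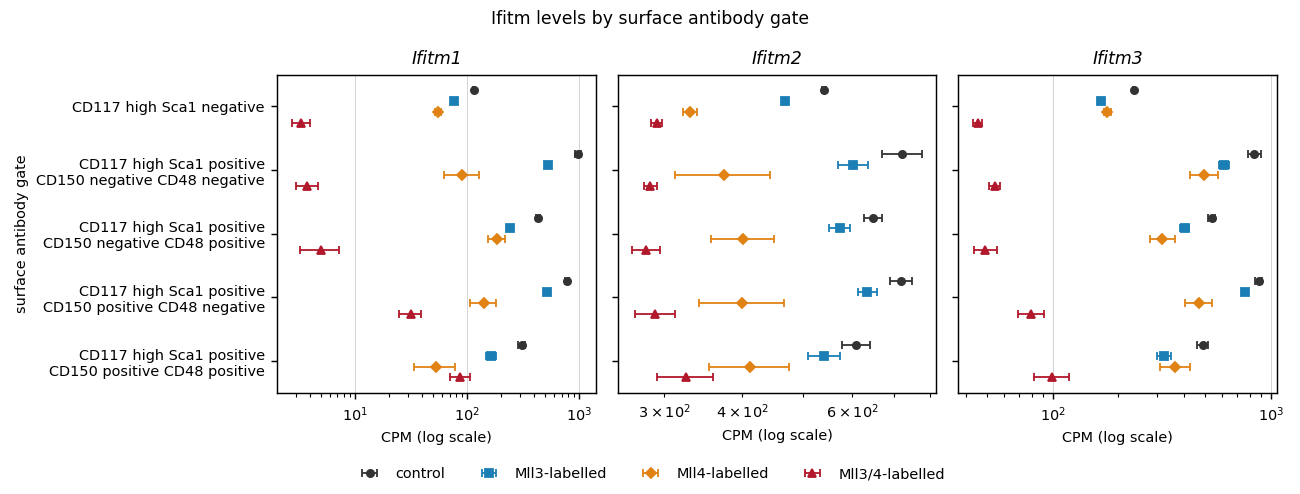
Levels (CPM, log axis) of Ifitm1, Ifitm2 and Ifitm3 in CD117-high cells that are Sca1 negative or fall in 1 of 4 CD150 and CD48 gates of the Sca1-positive cells, by library, with exact 95% Poisson intervals. In the control, Ifitm1 ranges from 115 CPM in Sca1-negative cells to 990.0 CPM in the CD150-negative CD48-negative gate, while Ifitm2 stays between 541 and 722 CPM.

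Summed over all kept cells, all 4 members were lower in the Mll3/4-labelled library than in the control, and 3 of them by at least 2-fold. Ifitm1 had 139 CPM in the control, 105 in the Mll3-labelled, 54.4 in the Mll4-labelled and 6.89 in the Mll3/4-labelled library, so that the Mll3/4-labelled value lay 20.2-fold below the control. Ifitm3 had 322, 224, 337 and 55.5 CPM, and Ifitm6 had 188, 79.9, 447 and 11.2 CPM. The Mll4-labelled library thus had the highest Ifitm6 of the 4, and the Mll3/4-labelled library the lowest Ifitm1, Ifitm3 and Ifitm6. Ifitm2 had 530.1, 462, 331 and 294 CPM, and was 1.80-fold lower in the Mll3/4-labelled library, the smallest difference of the 4 members there. Counting members at least 2-fold from the control with at least 20 counts in either library, 3 of 4 were lower and 0 higher in the Mll3/4-labelled library, where 19.5% of 15158 tested genes were lower and 19.8% higher by that rule. In the Mll4-labelled library 1 was higher (Ifitm6, log2 1.25) and 1 lower (Ifitm1, log2 −1.35), where 9.67% of tested genes were higher and 8.68% lower. In the Mll3-labelled library 1 was lower (Ifitm6, log2 −1.23) and 0 higher, where 3.40% of tested genes were lower and 1.58% higher. The share for the Mll3/4-labelled library shows how common such a difference was among all genes. In sums over all cells, fewer cells of a type and less RNA per cell cannot be told apart.

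**Figure D4:**
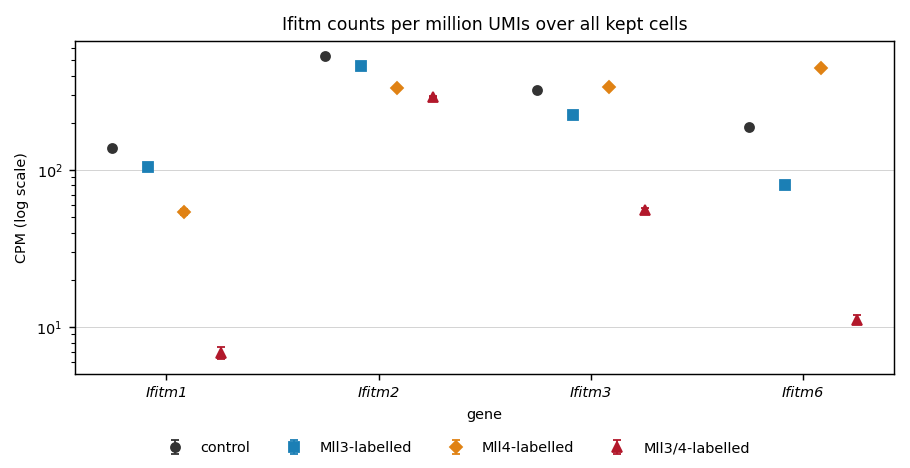
Level of each member over all kept cells (CPM, log axis) in each library, with exact 95% Poisson intervals for counting error only. In the Mll3/4-labelled library Ifitm1 is at 6.89 CPM and Ifitm2 at 294 CPM, against 139 and 530.1 CPM in the control.

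The cell makeup moved with these sums. Neutrophil-like cells, which carry Ifitm6, were 1782 of 7146 in the control, 1020 in the Mll3-labelled and 2687 in the Mll4-labelled library, and HSC/MPP-like cells were 1306, 864 and 235. When the levels of 8 classes were weighted by the control's makeup, Ifitm6 went from log2 1.25 to −0.14 with the Mll4 label, and from −1.23 to −0.66 with the Mll3 label. Ifitm1 of the Mll4-labelled cells went from −1.35 to −0.73, and Ifitm3 there from 0.07 to −0.52. At the control's makeup none of the 4 members was 2-fold from the control in either library. The hashtag pools of 1 library also differed: Ifitm6 in the Mll3-labelled library was 38.3 CPM in the first pool and 138 CPM in the second, against 199 and 175 CPM in the control's pools.

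In HSC/MPP-like cells, Ifitm1 had 544 CPM in the control, 426 with the Mll3 label (interval 414 to 438) and 228 with the Mll4 label (203 to 255). The share of cells with an Ifitm1 UMI was 92.5%, 85.5% and 55.3%, and, with each cell thinned to 2000 UMIs, 58.4%, 49.2% and 33.8%. In neutrophil-like cells of the control, a class with little Ifitm1, the shares were 6.68% unthinned and 0.970% thinned, at a median depth of 13537 UMIs against 13268 in HSC/MPP-like cells. Over the whole class the libraries had 1 order on these 3 measures. The largest shared cluster of a finer clustering, described after Ifitm3, did not show that order in CPM. In log2, Ifitm1 was −0.35 in the Mll3-labelled and −1.26 in the Mll4-labelled library. The same order held in both hashtag pools: 542 and 548 CPM in the control, 424 and 438 in the Mll3-labelled, and 250.1 and 173 in the Mll4-labelled library. The pools are parts of 1 library each, and the share of all genes with pools ordered this way was not counted. Changing how cells were clustered, filtered, scaled or counted, or keeping 1 hashtag pool, left the Mll4-labelled log2 value between −1.81 and −1.11.

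Ifitm3 in the same cells had 556, 536 and 263 CPM, or log2 −0.05 and −1.08, and Ifitm2 had 717, 676 and 474 CPM, or −0.08 and −0.60. The Mll3-labelled HSC/MPP-like cells were thus within 1.06-fold of the control in both, while the Mll4-labelled cells were lower in all 3. The 2-fold line lies close to the Ifitm3 value in the Mll4-labelled cells, which fell inside it under all 4 other clusterings (log2 −0.99 to −0.93) and was −0.72 under the stricter cell filter. Ifitm6 rested on 97, 41 and 18 counts, at 5.29, 3.44 and 13.6 CPM. S100a8 and S100a9 moved with it in these cells, at 932, 778 and 2484 CPM, and the part of free RNA in the Ifitm6 difference was not tested. Among the 4 members 0 passed 2-fold in the Mll3-labelled library, where 1.13% of tested genes were higher and 1.84% lower. In the Mll4-labelled library 1 was higher and 2 were lower, where 6.54% of tested genes were higher and 5.31% lower.

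At a finer clustering (Leiden resolution 2) the class named HSC/MPP-like took in other cells, since the class above held only 235 Mll4-labelled cells. The cells of the libraries also lay in different clusters. Of the Mll4-labelled cells, 258 formed a cluster with no control cell, with 124 CPM of Ifitm1. That cluster may be that library and not a cell type. In the largest shared cluster, led by Adgrl4 and Wfdc17, Ifitm1 was 483 CPM in 713 control cells, 322 CPM in 451 Mll3-labelled cells and 408.5 CPM in 58 Mll4-labelled cells, so the order of the libraries differed from that of the whole class and no value was 2-fold from the control. In the cluster led by Ly6a and Iigp1 it was 1212 CPM in 297, 1014 CPM in 230 and 273 CPM in 25 cells, and in that led by histone genes 298 CPM in 293, 249 CPM in 266 and 117 CPM in 166 cells. Ifitm3 in the same shared clusters was 517, 477 and 308 CPM, then 1035, 969 and 644 CPM, then 385, 366 and 214 CPM. The Mll4-labelled Ifitm3 was thus the lowest in each shared cluster, and the Mll4-labelled Ifitm1 in 2 of the 3. Of these 2, the Ly6a and Iigp1 cluster held only 25 Mll4-labelled cells. The other, led by histone genes, held 728 cells. A cluster of 727 cells, also led by Hist1h2ap, was left unnamed at resolution 1 and so lay outside the class above.

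The 10 HSC/MPP-like cells of the Mll3/4-labelled library were too few for a comparison. They held 213 Ifitm1 counts, or 1115 CPM.

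The lowest Ifitm1 of any class with at least 50 cells was that of the Mll3/4-labelled B-cell progenitor-like cells. Ifitm1 in this class had 53.9 CPM (interval 46.1 to 62.6, 171 counts in 468 cells) in the control, 13.2 CPM (38 counts) in the Mll3-labelled library, 5.61 CPM (2 counts) in the Mll4-labelled library and 0.0922 CPM (0.0371 to 0.190, 7 counts in 6830 cells) in the Mll3/4-labelled library. The last value lay 584-fold below the control, at log2 −9.19. In the hashtag pools it was 64.9 and 43.0 CPM for the control, 11.2 and 17.0 CPM for the Mll3-labelled library, and 0.0258 and 0.174 CPM for the Mll3/4-labelled library. The pools of these 3 libraries did not overlap, but the share of all genes with such a split was not counted. The Mll4-labelled pools had 0 counts and 2 counts (11.1 CPM), too few to place them among the others. An Ifitm1 UMI was found in 21.6% of control cells, 7.88% of Mll3-labelled cells, 1.40% of Mll4-labelled cells and 0.102% of Mll3/4-labelled cells, at median depths of 4415, 6522, 2276 and 9936 UMIs. The Mll3/4-labelled cells thus had the lowest share and the highest depth. Neutrophil-like cells of the control, which serve as a background class, had 5.51 CPM of Ifitm1 and a UMI in 6.68% of cells. The control B-cell progenitor-like level stood above this background. The Mll4-labelled level of 5.61 CPM lay near it, and the Mll3/4-labelled level lay below it. The part of free RNA in these Ifitm1 levels, and so in the 584-fold ratio and the order of the libraries, was not tested.

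The B-cell progenitor-like cells of the libraries lay in different clusters. The control cells lay in a cluster led by Vpreb1 and Vpreb3, genes of the surrogate light chain of early B cells (313 cells), and in one led by Bfsp2 and Dntt (154 cells). The Mll3/4-labelled cells lay in 4 clusters that hold almost no cell of another library, and which may be that library and not a cell type. Ifitm1 in the control was 116 CPM in the Vpreb1 and Vpreb3 cluster and 13.6 CPM in the Bfsp2 and Dntt cluster. It was 18.5 and 10.0 CPM in the same clusters of the Mll3-labelled library. Against the Bfsp2 and Dntt cluster alone, the Mll3/4-labelled log2 value was −7.20, and among B220-positive cells, gated by antibody, it was −9.59, from 1 count in 964 Mll3/4-labelled cells. Over all settings it ranged from −11.30 to −7.20.

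Ifitm2 did not follow Ifitm1 in these cells. It had 305, 292, 264 and 286 CPM over the 4 libraries, or log2 −0.09 in the Mll3/4-labelled library, within 1.16-fold of the control in each. Ifitm3 had 142 CPM in the control, 87.6 in the Mll3-labelled, 70.2 in the Mll4-labelled and 48.4 in the Mll3/4-labelled library, the last 2.95-fold below the control at log2 −1.56. The Mll3/4-labelled clusters had 33.2 to 68.6 CPM of Ifitm3 and the control clusters 103 and 204 CPM. Ifitm6 had 7.25, 4.17, 11.2 and 0.224 CPM, and S100a8 and S100a9 moved with it at 1778, 1326, 4652 and 63.8 CPM. Its ratio to them was 4.08 counts per 1000 in the control and 3.51 in the Mll3/4-labelled library. So 3 of 4 members, including Ifitm6 with its limit just given, were at least 2-fold lower in the Mll3/4-labelled B-cell progenitor-like cells, where 9.98% of 13455 tested genes were lower and 11.8% higher. In this class 1 member was lower in the Mll3-labelled library (Ifitm1, where 2.63% of tested genes were) and 2 in the Mll4-labelled library (Ifitm1 and Ifitm3, where 8.10% were).

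The few other cells of the Mll3/4-labelled library held most of its Ifitm1 and Ifitm6. The 87 cells outside the B-cell progenitor-like class carried 528 of 535 Ifitm1 counts and 853 of 870 Ifitm6 counts. For Ifitm2 and Ifitm3 it was the reverse, as 95.2% and 85.1% of their counts lay in the B-cell progenitor-like cells.

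**Figure D5:**
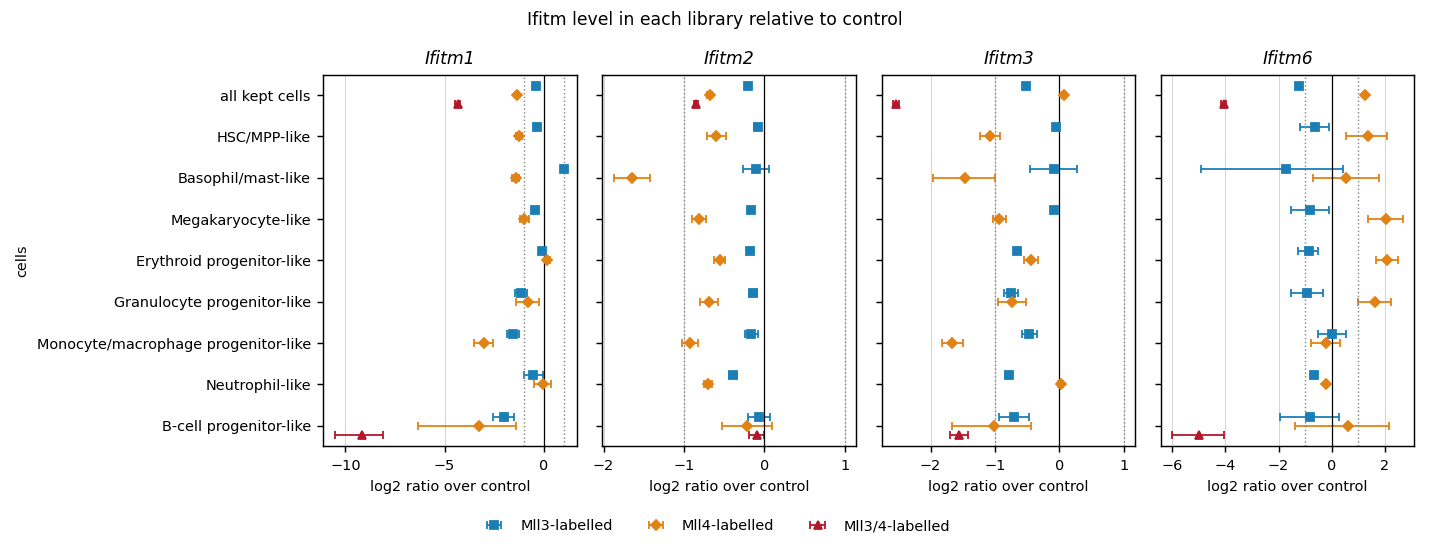
Log2 ratio of each library to the control for each member and cell class, with exact 95% intervals for counting error and dotted lines at 2-fold. Ifitm2 stays inside the 2-fold lines in every class except Mll4-labelled basophil/mast-like cells (log2 −1.64), and Ifitm1 in B-cell progenitor-like cells reaches −9.19.

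In monocyte/macrophage progenitor-like cells Ifitm1 had 104 CPM in the control, 35.2 in the Mll3-labelled and 12.8 in the Mll4-labelled library (log2 −1.56 and −3.02). Ifitm3 had 388, 281 and 122 CPM (−0.47 and −1.66). The order of the libraries was that of the whole HSC/MPP-like class. Ifitm2 had 677, 606 and 358 CPM, and Ifitm6 had 17.9, 18.2 and 15.3 CPM. Of the 4 members 1 was at least 2-fold lower in the Mll3-labelled library, where 1.26% of tested genes were, and 2 in the Mll4-labelled library, where 3.10% were. At resolution 2, however, 462 Mll4-labelled cells of this class formed a cluster of their own, with 32 counts of Ifitm1 and 102 CPM of Ifitm3. In the cluster shared by the libraries Ifitm1 was 102 CPM in 194 control cells, 33.5 CPM in 144 Mll3-labelled cells and 27.0 CPM in 38 Mll4-labelled cells (7 counts), and Ifitm3 was 379, 244 and 239 CPM.

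In granulocyte progenitor-like cells Ifitm1 had 25.1, 11.4 and 14.3 CPM, Ifitm2 had 553, 502 and 345 CPM, and Ifitm3 had 155, 92.0 and 93.4 CPM in the control, Mll3-labelled and Mll4-labelled libraries. All 3 were lower than the control in both libraries, and Ifitm1 was past 2-fold in the Mll3-labelled library (log2 −1.13, where 1.34% of tested genes were lower by as much). Ifitm6, at 5.68, 3.02 and 17.7 CPM, was past 2-fold higher in the Mll4-labelled library, where 9.90% of tested genes were. S100a8 and S100a9 had 5365, 7291 and 11804 CPM in these cells.

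Neutrophil-like cells held Ifitm6 at 1181, 749 and 1024 CPM in the control, Mll3-labelled and Mll4-labelled libraries (log2 −0.66 and −0.21). The control cells lay in the Fcnb, the Inhba and Cd177, and the Retnlg and Mmp8 clusters, and the Mll4-labelled cells mainly in the cluster of that library named above. By hashtag pool Ifitm6 was 1191 and 1179 CPM in the control, 529 and 888 CPM in the Mll3-labelled, and 958 and 1097 CPM in the Mll4-labelled library. The control pools lay above those of the other libraries, but the Mll3-labelled pools differed from each other by more than the Mll4-labelled library differed from the control. The share of all genes with pools split this way was not counted, and the pools are parts of 1 library each. Ifitm3 had 553, 320.1 and 561 CPM in this class, with pools of 573 and 534, 199.9 and 394, and 437 and 680.1 CPM, so that pools of the control and the Mll4-labelled library overlapped. Ifitm2 had 497, 379 and 305 CPM. None of the 4 members passed 2-fold in either library, where 2.35% (Mll3-labelled) and 9.24% (Mll4-labelled) of tested genes did. The gate of CD11b-positive Gr1-positive cells, antibodies of mature myeloid cells, gave 1122, 651 and 994 CPM of Ifitm6, the same order.

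Basophil/mast-like cells of the Mll3-labelled library had more Ifitm1 than those of the control. The level was 1092 CPM in the control (117 cells), 2169 CPM in the Mll3-labelled library (63 cells) and 409 CPM in the Mll4-labelled library (249 cells), or log2 0.99 and −1.42. Its counts were concentrated: the top 10% of cells held 47.0% of them in the control, 44.8% in the Mll3-labelled and 87.7% in the Mll4-labelled library. Ifitm2 had 809.7, 754 and 260 CPM, and Ifitm3 had 168, 158 and 60.9 CPM. All 3 were thus past 2-fold lower in the Mll4-labelled library, where 4.83% of tested genes were, and 0 members were past it in the Mll3-labelled library, where 4.24% were. The class held different cells in the libraries. At resolution 2, 152 Mll4-labelled cells lay in a cluster led by Cma1, a mast cell protease, and Cpa3, with 92.2 CPM of Ifitm1, which held 15 control cells. In the cluster led by Ms4a2 and Mcpt8, with 106 control, 51 Mll3-labelled and 85 Mll4-labelled cells, Ifitm1 was 1049, 2227 and 881 CPM, Ifitm2 was 813, 796 and 355 CPM and Ifitm3 was 172, 172 and 62.0 CPM. There the Mll4-labelled Ifitm1 was within 2-fold of the control. Under the stricter cell filter the class took in more cells, 278 in the control and 151 in the Mll3-labelled library, and Ifitm1 was 419 and 599 CPM.

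In megakaryocyte-like cells the 3 progenitor-expressed members were lower in the Mll4-labelled library. This class depended on the clustering there: its 457 Mll4-labelled cells lay in clusters of 337 and 120. At resolution 2 the megakaryocyte-like clusters held 165 and 95 Mll4-labelled cells, and member levels in them were not compared. Of 7 markers, 4 reached 10% of the Mll4-labelled cells, against 5 in the control. In the Mll3-labelled library Ifitm2 and Ifitm3 were close to the control (log2 −0.17 and −0.08) and Ifitm1 was lower (log2 −0.43). Ifitm1 had 145, 108 and 73.4 CPM, Ifitm2 had 748, 667 and 426 CPM, and Ifitm3 had 577, 547 and 303 CPM. In erythroid progenitor-like cells Ifitm1 had 70.3, 65.8 and 79.8 CPM, Ifitm2 had 435, 382 and 296 CPM, and Ifitm3 had 159, 101 and 117 CPM. The Mll4-labelled Ifitm1 was therefore not lower than the control in erythroid progenitor-like cells (log2 0.18, interval from 0.05), where the median over all tested genes was 0.21. The Mll4-labelled Ifitm1 was −0.06 in neutrophil-like cells and −0.81 or lower in the 6 other classes compared. Only Ifitm6 passed 2-fold in these classes in the Mll4-labelled library, at log2 2.03 and 2.11, where 6.90% of megakaryocyte-like and 7.77% of erythroid progenitor-like tested genes were higher by as much. In the Mll3-labelled library 0 members passed it, where 3.54% and 4.02% of tested genes did in either direction. S100a8 and S100a9 moved with it, at 728 and 2360 CPM in megakaryocyte-like and 462 and 2485 CPM in erythroid progenitor-like cells of the control and the Mll4-labelled library.

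The rest of the interferon pathway was counted from lists. Of 36 interferon-stimulated genes 34 were found in the features. Over all kept cells 19 of 34 were at least 2-fold higher and 3 lower in the Mll3/4-labelled library, where 19.8% of all tested genes were higher and 19.5% lower, with a median log2 of 1.10 against −0.02 over all tested genes. The largest were Ifit3 (4.54), Ifi27l2a (4.11) and Ifit1 (3.03), products that bind viral RNA or respond to interferon, then Oas2 (−2.65), Ifi203 (2.65) and Usp18 (2.63), the last a brake on the interferon receptor. Within B-cell progenitor-like cells 3 of 33 tested were higher (Lgals3bp 1.32, Samd9l 1.29 and Ifit1 1.24) and 0 lower, where 11.8% of all tested genes were higher and 9.98% lower, with a median of −0.06 against 0 over all tested genes. The listed genes' share of higher genes is thus near the background.

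In the Mll4-labelled library 2 of 34 interferon-stimulated genes were higher over all kept cells (Gbp2 1.43 and Samd9l 1.12) and 3 lower (Isg20 −1.64, Bst2 −1.22 and Rtp4 −1.06), where 9.67% of all tested genes were higher and 8.68% lower. In HSC/MPP-like cells of that library 0 were higher and 2 lower (Isg20 −1.08 and Bst2 −1.05), where 6.54% of all tested genes were higher and 5.31% lower. The median in HSC/MPP-like cells was 0.09 against 0.15 over all tested genes. In the Mll3-labelled library 1 of 34 was higher over all kept cells (Oas1a 1.03), where 1.58% of all tested genes were, and in HSC/MPP-like cells Oas1a was higher (1.15) and Ifit3 lower (−1.13), where 1.13% of all tested genes were higher and 1.84% lower. An ISRE core was found in the promoter window of 16 of the 28 listed genes with a window in the table.

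Among 14 interferon receptor and signalling genes, 0 passed 2-fold over all kept cells in the Mll3- and Mll4-labelled libraries and 0 in HSC/MPP-like cells of either, against the shares of all tested genes just given. In the Mll3/4-labelled library 3 were higher (Ifngr2 1.92, Ifnar1 1.72, and Irf7 at 5.08 and 10.2 CPM) and 1 lower (Ifngr1 −2.44) over all cells, where 19.8% of all tested genes were higher and 19.5% lower. Within B-cell progenitor-like cells 1 was lower there: Irf1, a transcription factor of the interferon response, which went from 33.7 CPM in control cells to 16.2 CPM in Mll3/4-labelled cells (log2 −1.06), where 9.98% of all tested genes were lower.

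Of 6 genes whose products modify or bind IFITM proteins, Zmpste24, a protease and IFITM3 partner, was higher over all kept cells in the Mll4-labelled library (88.0 and 181 CPM, log2 1.04), where 9.67% of all tested genes were higher. Nedd4, a ubiquitin ligase of IFITM3, and Setd7, a methyltransferase of it, were higher in the Mll3/4-labelled library over all cells (1.14 and 1.32) and within B-cell progenitor-like cells (1.80 and 1.43), where 19.8% and 11.8% of all tested genes were higher.

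Likeness of pattern was measured as Pearson's r of log2(CPM + 1) over 28 groups of 1 class in 1 library with at least 50 cells, among 5992 genes with a mean of at least 20 CPM. The groups share libraries, depth and free RNA, and r is given as a description. The genes most like Ifitm1 were Heatr5a (0.85), Gata2 (0.84), a transcription factor of stem, mast and megakaryocyte cells, Muc13 (0.83), Hsd3b7 (0.82) and Foxo3 (0.81). Those most like Ifitm6 were Ltf (0.95), Lcn2 (0.95), Cd177 (0.95), Ngp (0.94) and Chil3 (0.92), most of them granule or surface genes of neutrophils. For Ifitm2 the closest were Tmem205 (0.88), Tctex1d2 (0.81), Tusc1 (0.78), Cpne2 (0.75) and Pla2g4a (0.74), and for Ifitm3 they were Skap2 (0.72), Nfic (0.69), Ifitm2 (0.68), Card19 (0.68) and Pak1 (0.68). Between members r was 0.54 for Ifitm1 and Ifitm2, 0.38 for Ifitm1 and Ifitm3, 0.42 for Ifitm3 and Ifitm6, −0.08 for Ifitm2 and Ifitm6 and −0.25 for Ifitm1 and Ifitm6. Only Ifitm3 thus had another member among its 5 closest genes.

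Within HSC/MPP-like cells of the control, thinned to 2000 UMIs, 42.7% of cells had both an Ifitm1 and an Ifitm3 UMI, where the product of the separate shares is 38.4%. In the Mll3-labelled library these were 34.2% and 30.1%. For Ifitm2 and Ifitm3 both values were close, at 50.8% and 50.5% in the control.

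The genes that flank the cluster were counted to see whether neighbours moved with the members. Within B-cell progenitor-like cells Sigirr, an inhibitory receptor of the interleukin-1 family, had 33.4 CPM in control cells and 16.4 CPM in Mll3/4-labelled cells (log2 −1.02), and Pkp3, a junction protein, had 23.6 and 29.5 CPM. Over all kept cells Pkp3 went from 7.30 CPM for the control to 29.2 CPM with the Mll3/4 label, and Nlrp6, an inflammasome gene, had 0.872 and 0.0129 CPM. The flanking genes thus did not move in 1 direction.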

How the data were processed

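Kit+ CD45.2+ bone marrow of 4 groups was measured, with 1 library each. The deposited matrices hold raw UMI counts per gene and antibody, made by the authors with Cell Ranger 6.1.2 and mm10, per the submitters' processing notes. The annotation release is not given in the sources used here. Of 32285 feature identifiers 32158 occur in GENCODE M21.

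Barcodes were kept with at least 500 genes, at least 1000 UMIs and at most 10% mitochondrial UMIs, and the highest Scrublet doublet scores were removed at 0.8% per 1000 barcodes (expected rate 0.06, scanpy 1.11.5). Clustering used 2000 variable genes without Ifitm, mitochondrial, Xist and Y-linked genes, 30 principal components, 15 neighbours and Leiden resolution 1. A class name needed at least 3 markers in at least 10% of cells. No cell annotation was used. Antibody and hashtag thresholds came from Gaussian mixtures (scikit-learn 1.9.0). Hashtags were fitted in each library. Antibodies were fitted in control cells only, and those thresholds were used on the raw counts of all libraries. Median CD48 counts were 450 in the control, 376.5 in the Mll3-labelled, 203 in the Mll4-labelled and 27 in the Mll3/4-labelled library.

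Counts were summed per library and class and given as CPM of gene UMIs. A gene was called at a CPM ratio of at least 2-fold with at least 20 counts in either library, no pseudocount, and a count of 0 set to 3. Likeness used a pseudocount of 1 CPM. No sample test or p-value was possible with 1 library per group. TMM factors (edgeR 4.0.16) served as an alternative, beside thinning, per-cell means, filters, clusterings and hashtags. The interval and ratio code was tested on simulated data.

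The members were always named. Other genes were named from the lists where past 2-fold with enough counts, at most 6 per list, and the 5 most alike per member. The result of 1 list is not reported here. The members and lists were chosen with earlier results of these data known. The makeup-held, Bfsp2 and Dntt, and B220 alternatives were chosen after seeing the data.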

Additional observations from a re-analysis of the deposited data

Results flagged for a closer look

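The same contrast gave opposite directions in different cell classes for 3 results, each from 1 library per group, and none of these differences was tested. Ifitm1 in the Mll3-labelled library was above the control in basophil/mast-like cells (log2 0.99) and below it in B-cell progenitor-like cells (log2 −2.03). In the Mll4-labelled library Ifitm1 was above the control in erythroid progenitor-like cells (log2 0.18) and below it in B-cell progenitor-like cells (log2 −3.26, from 2 counts). The median log2 over all tested genes in that erythroid comparison was 0.21, so Ifitm1 was not raised there relative to the typical gene. Ifitm6 in the Mll4-labelled library was above the control in erythroid progenitor-like cells (log2 2.11) and below it in neutrophil-like cells (log2 −0.21). S100a8 and S100a9 had 462 and 2485 CPM in erythroid progenitor-like cells of the control and the Mll4-labelled library. Ifitm6 had 5.30 and 4.24 counts per 1000 of theirs, and the part of free RNA in its difference was not tested. No group holds enough libraries to look for a sample far from the others.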

How the results depend on the processing

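No paired analysis was possible because each group has 1 library. Under the alternatives 160 summary values stayed and 20 moved, and of the values of single members 167 stayed, 88 moved and 1 reversed. Over all kept cells, the number of members past 2-fold in the Mll3-labelled library (1) was 0 in the second hashtag pool and 0 at the control's class makeup. In the Mll4-labelled library (2) it was 1 with the mean of each cell's CPM, 1 after thinning, 1 in the first hashtag pool and 0 at the control's makeup, where Ifitm6 reversed to log2 −0.14. In HSC/MPP-like cells of the Mll4-labelled library (3) it was 1 after thinning. The number of classes at least 2-fold below the highest for Ifitm2 went from 2 to 1 under the stricter filter in the control, from 2 to 4 with no doublet removal in the Mll3-labelled library, and from 0 in the Mll4-labelled library to 1 with no doublet removal, 1 with per-cell means, 2 after thinning, 1 at Leiden resolution 0.5 and 1 with Ifitm genes kept in clustering. Members at least 2-fold higher in Sca1-positive cells went from 2 to 1 in the Mll4-labelled library with no doublet removal, thinning or halved thresholds, and from 2 to 1 in the Mll3/4-labelled library with thinning, doubled or halved thresholds. The cause was not tested. TMM scaling was not run for class order, which 1 factor per library leaves in place. Each group is 1 library, so the spread between mice is unknown, and the lower depth of the Mll4-labelled library limits counts such as the 2 for Ifitm1 in its B-cell progenitor-like cells.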

Other observations

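Some cell classes had enough cells in 1 library only. The 103 dendritic-like cells of the Mll4-labelled library had 1015 CPM of Ifitm3, above any class of the control for that gene, with 449 CPM of Ifitm1, 446 CPM of Ifitm2 and 117 CPM of Ifitm6. Ifitm6 stood there at 29.1 counts per 1000 counts of S100a8 and S100a9, against 3.59 in the neutrophil-like cells of the same library. The 146 mature B-like cells of the Mll3-labelled library had 11.2 CPM of Ifitm1, 114 CPM of Ifitm2, 60.3 CPM of Ifitm3 and 11.2 CPM of Ifitm6.

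Of the other family members, Ifitm7, which lies on chromosome 16, had 277 counts in the control and 5 in the Mll3/4-labelled library over all kept cells (log2 −4.81). Ifitm10 was lower there as well (log2 −4.69), where 19.5% of all tested genes were lower by at least 2-fold. It was also lower in the Mll3-labelled library (log2 −1.18), where 3.40% were. Neutrophil-like cells held 93 of the 102 Ifitm10 counts of the control. Control B-cell progenitor-like cells had 3 counts of Ifitm7 and 0 of Ifitm10. In these sums, fewer cells of a type and less RNA per cell cannot be told apart. Ifitm5, known from bone-forming cells, had 0.605 CPM in the control. In control cells Ifitm7 was highest in monocyte/macrophage progenitor-like cells among the compared classes, at 12.5 CPM.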
